A study of Mus musculus with 12 samples.

Results

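The Wnt pathway genes described here were the probes whose gene symbol is a Wnt ligand, a Frizzled receptor, a Dickkopf, a secreted Frizzled-related protein (Sfrp) or an R-spondin, or one of Lrp5, Lrp6, Axin1, Axin2, Lef1, Tcf7, Tcf7l1, Tcf7l2, Wif1 and Frzb. They were chosen by name, but with earlier results of these data known. The rule found 35 probes of 28 genes among the 45281 probes of the array, of which 14461 name 1 gene, and Lrp5, Tcf7, Wif1 and Frzb were not analysed here. Gene names were available only for the 17003 probes of the authors' deposited table. Family members outside it could not be found, so the counts below cover a part of each family. Of the 28 genes, 20 passed the filter on dim probes, which asks for a signal above background on 3 or more of the 12 arrays, and were tested among 17268 features in all. The other 8 were near or below background. Dkk2, Wnt2, Wnt2b and Wnt3 were above background on 0 arrays, and Lef1, Rspo1, Wnt4 and Wnt16 on 1 or 2.

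The cells were immortalized mouse embryonic fibroblasts (MEFs) of genotype Rictor-/- or Rictor+/+. The Rictor protein is a core part of mTOR complex 2, which phosphorylates Akt and related kinases. Each genotype was treated for 24 hours with murine IFN-alpha, a type I interferon, at 2500 U/ml or left untreated, which gave 4 groups of 3 arrays each: Rictor-/- with IFN, Rictor-/- untreated, Rictor+/+ with IFN and Rictor+/+ untreated. No label states that replicate arrays stem from independent cultures, so p-values measure only the spread between these arrays, which may be technical. As far as the labels tell, each genotype is 1 cell line, so that genotype and line cannot be told apart. The treatment field names siRNAs against Rictor for all samples, at odds with the knockout genotype, and the genotype field was followed.

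Wnt proteins are secreted, lipid-modified signals that bind Frizzled receptors together with the co-receptors Lrp5 and Lrp6. Binding halts the destruction complex, built on Axin proteins, and lets beta-catenin reach the nucleus, where it acts with Tcf and Lef factors. R-spondins amplify the signal at the cell surface, Sfrp proteins bind Wnt ligands outside the cell, and most Dickkopf proteins block the co-receptors. In mesenchymal cells such as fibroblasts the pathway is known for patterning, for bone formation and for restraining fat cell formation.

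The total signal of an array was 39160370 to 62338146 on 11 arrays and 21292305 on array 12, an IFN-treated Rictor-/- array. The background of an array was 210.7 to 240.3 intensity units on 6 arrays, called here the high set, and 107.6 to 127.9 on the 6 arrays of the low set. The high set held 2 Rictor-/- and 4 Rictor+/+ arrays and the low set 4 and 2, so that background level and genotype coincide in part. The Rictor probe checked nothing about the knockout, because its position relative to the deletion is not known. It passed background on 3 Rictor-/- and on 4 Rictor+/+ arrays (log2 difference −0.01 ± 0.34 SE, limma adjusted p = 0.99). Xist was detected on all 6 Rictor-/- arrays and on 0 Rictor+/+ arrays, and the Y-linked gene Eif2s3y on 0 Rictor-/- and all 6 Rictor+/+ arrays. By these genes the lines differ in sex, so that sex, line and genotype cannot be told apart in any difference between them. Of 12 fibroblast markers, 2 were higher and 8 lower in Rictor-/- cells (adjusted p under 0.05, as for 26.7% of all features and 41.7% of named genes), and their mean log2 level was 10.4 to 11.1 on Rictor-/- arrays against 11.7 to 12.5 on Rictor+/+ arrays. Their part in the differences below was not tested. In bulk RNA, fewer cells that express a gene and less of its RNA per cell cannot be told apart.

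The promoters below are shown for a ligand that was higher in Rictor-/- cells (Wnt7a), a ligand and a secreted inhibitor that were lower (Wnt6 and Sfrp2), and a receptor that was lower (Fzd1). Each is the 250 bases before the transcription start from RefSeq on mouse build GRCm38.p6, 5′ to 3′ on the strand of the gene. RefSeq promoter entries matched 17 of the 28 genes, 9 of the 20 tested ones. Among the tested genes without an entry are Dkk3, Rspo3, Sfrp1, Wnt10a, Fzd2 and Fzd6. In the first 3, capitals mark CpG dinucleotides.
Wnt7a: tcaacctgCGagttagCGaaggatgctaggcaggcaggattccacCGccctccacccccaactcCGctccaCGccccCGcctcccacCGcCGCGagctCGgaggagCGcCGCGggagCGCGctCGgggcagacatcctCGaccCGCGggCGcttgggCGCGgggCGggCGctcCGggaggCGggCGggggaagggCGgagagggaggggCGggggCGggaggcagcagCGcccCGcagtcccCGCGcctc
Wnt6: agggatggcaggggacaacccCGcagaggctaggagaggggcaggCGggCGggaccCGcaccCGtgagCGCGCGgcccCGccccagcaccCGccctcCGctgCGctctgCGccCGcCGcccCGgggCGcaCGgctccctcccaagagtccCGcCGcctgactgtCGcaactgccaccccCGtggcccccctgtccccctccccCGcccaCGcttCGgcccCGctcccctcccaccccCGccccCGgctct
Sfrp2: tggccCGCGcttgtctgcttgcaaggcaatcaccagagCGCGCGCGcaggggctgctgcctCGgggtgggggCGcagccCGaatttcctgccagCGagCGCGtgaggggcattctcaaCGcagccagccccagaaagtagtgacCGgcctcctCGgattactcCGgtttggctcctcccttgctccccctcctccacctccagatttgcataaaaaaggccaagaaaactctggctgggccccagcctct
The Wnt7a window (chr6:91411354-91411603, minus strand) holds 34 CpG, that of Wnt6 (chr1:74771642-74771891, plus strand) 28 and that of Sfrp2 (chr3:83766071-83766320, plus strand) 16. Over all 32851 promoters of the same length the median was 6 CpG and the upper quartile 16. Of the 23 promoters of the Wnt pathway genes, 20 were above that median and 12 at or above the upper quartile. CpG-dense windows belong to genes that were higher as well as to genes that were lower in Rictor-/- cells.

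In the Fzd1 window (chr5:4758217-4758466, minus strand), capitals mark matches to CTTTGA or CTTTGT, the core letters that Tcf and Lef factors are known to bind, searched on both strands.
Fzd1: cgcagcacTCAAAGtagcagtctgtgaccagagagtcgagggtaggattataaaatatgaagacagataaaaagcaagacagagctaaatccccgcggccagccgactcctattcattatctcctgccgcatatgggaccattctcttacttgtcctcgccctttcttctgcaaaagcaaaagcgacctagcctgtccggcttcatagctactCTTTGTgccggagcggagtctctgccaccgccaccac
TCAAAG, which is CTTTGA on the other strand, starts 242 bases before the transcription start, and CTTTGT starts 37 bases before it. At least 1 of these cores lies in 6 of the 23 promoters of Wnt pathway genes (CTTTGA in 3, CTTTGT in 5) and in 27.6% of all promoters (CTTTGA in 13.8%, CTTTGT in 16.5%). A match of letters is a description, not a binding site.

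The first comparison asks how the lines differ in Wnt pathway genes. Values are log2 intensities after background correction and quantile normalization, differences are Rictor-/- minus Rictor+/+ from limma ± SE, and a gene was called at a Benjamini-Hochberg adjusted p under 0.05 over all 17268 features. Averaged over treatment (6 arrays a line), 7 of the 20 tested genes were higher in Rictor-/- cells, 7 were lower and 6 were not called. Over all features 26.7% were called (13.3% higher and 13.4% lower), over the 8277 named genes 41.7%. Among named genes above background on all 12 arrays 37.9% were called, and 4 of the 8 Wnt pathway genes of that kind, Wnt10b (higher) and Fzd1, Fzd2 and Fzd6 (lower). Of the other 12, Dkk3, Wnt7a, Sfrp2, Wnt5b and Wnt6 were above background in 1 line only, and a gene that passed the filter in this way had to differ. The median absolute difference was 1.19 for the 20 genes and 0.32 for all features. The size of a difference depends on the background correction. Without it all 14 calls stood, but 8 of the 14 folds, those of Dkk3, Rspo3, Sfrp2, Wnt7a, Wnt6, Wnt10a, Wnt5b and Wnt7b, were over 1.5 times smaller, and every bound given below as "at least" holds for corrected values only. By role, 4 of 7 ligands were higher and 2 lower, the 1 tested R-spondin was lower, 3 of 5 receptors were lower and 0 higher, 2 of 3 secreted inhibitors were higher and 1 lower, and 1 of 4 intracellular effectors was higher. All 6 arrays of one line lay above all 6 of the other in 10 of the 20 genes, against 14% of features and 22.8% of named genes. These 10 include Dkk3, Wnt7a, Sfrp2, Wnt5b and Wnt6, which passed the filter through 1 line only. Of the 8 genes above background on all 12 arrays, only Wnt10b and Fzd2 did not overlap. The count of 10 and the median of 1.19 therefore do not measure an excess in these genes.

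**Figure D1:**
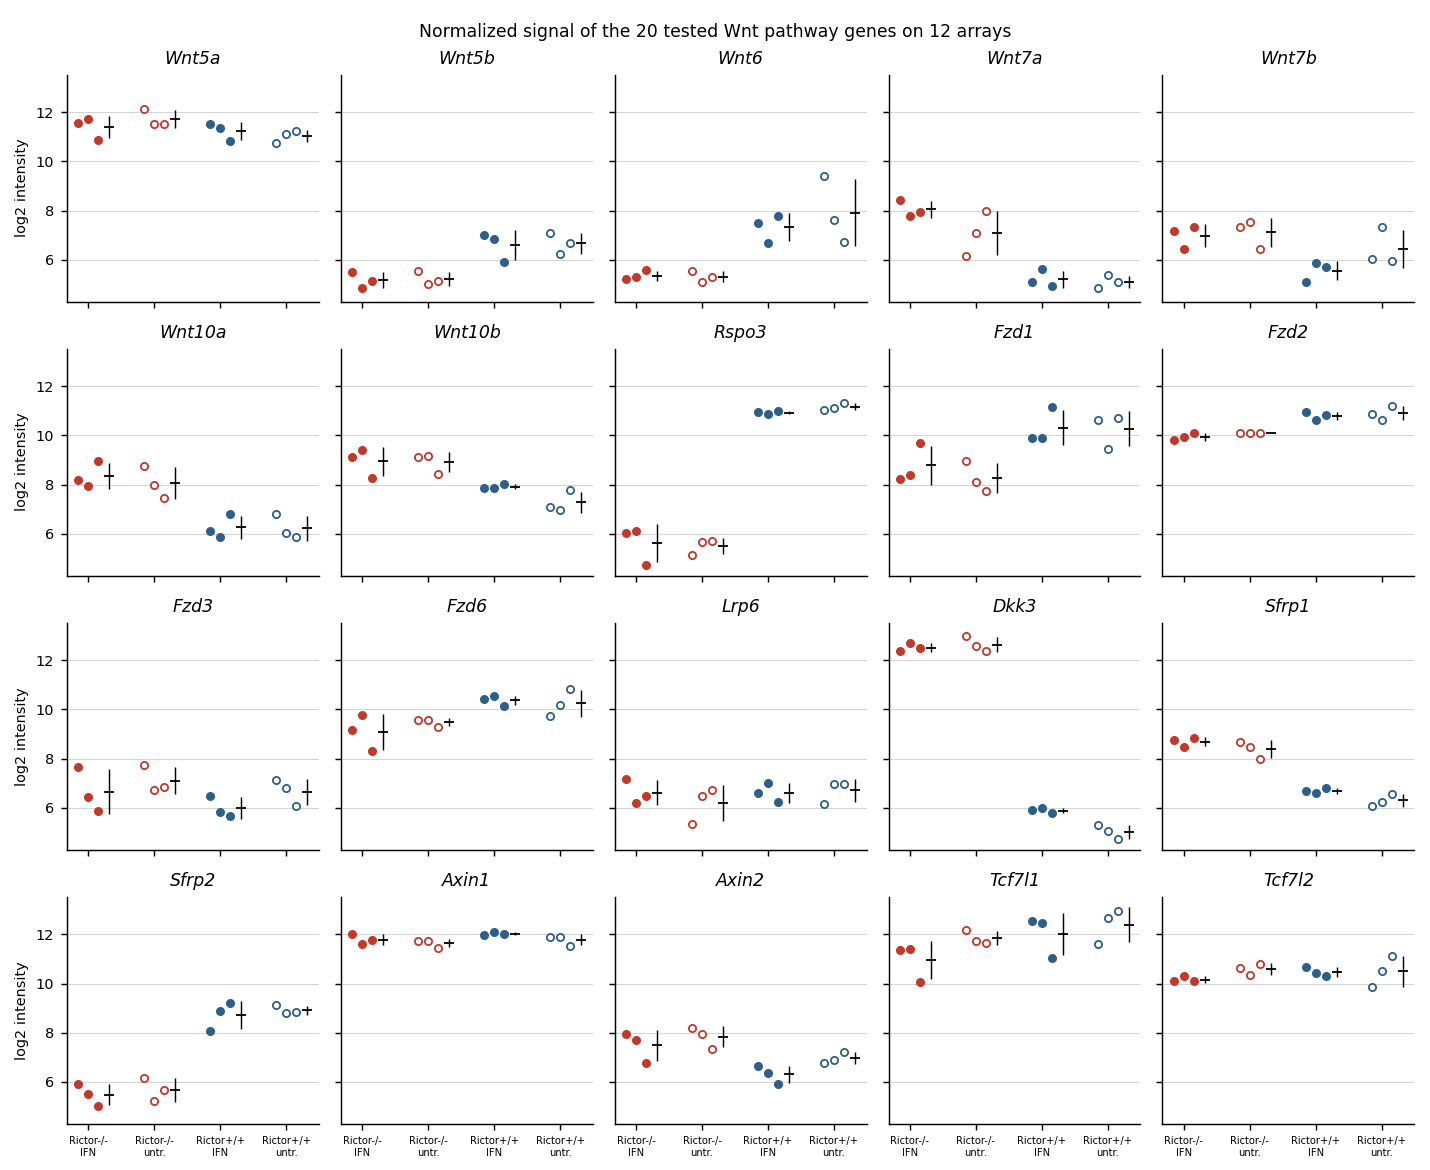
Log2 intensity of the 20 tested Wnt pathway genes on each of the 12 arrays (points; filled with IFN, open untreated; red Rictor-/-, blue Rictor+/+), with the mean and SD of each group of 3 (bars). Dkk3, Sfrp1, Wnt7a, Wnt10a and Wnt10b lie higher on all Rictor-/- arrays, and Rspo3, Sfrp2, Wnt5b, Wnt6 and Fzd2 lower, with no overlap between the lines.

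Among the ligands, Wnt7a, which acts in limb and neural development, was below background on 6 of 6 Rictor+/+ arrays. Its log2 intensities were 8.43, 7.77 and 7.94 on IFN-treated and 6.17, 7.08 and 7.98 on untreated Rictor-/- arrays, against 5.08, 5.61 and 4.93 on IFN-treated and 4.87, 5.36 and 5.09 on untreated Rictor+/+ arrays. All Rictor-/- arrays lay above all Rictor+/+ arrays, though 1 untreated Rictor-/- array was at background. The fitted difference was 2.40 ± 0.27 (adjusted p = 2.24e-05). As the Rictor+/+ arrays were below background, the fold is a bound: Wnt7a was at least 2.65-fold higher in Rictor-/- cells, measured against the lowest signal above background on each array. Without background correction it was 2.07-fold higher.

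Wnt10a and Wnt10b, paralogs that act in skin appendages, bone and the restraint of fat cell formation, were both higher. For Wnt10a the values were 8.18, 7.93 and 8.96 with IFN and 8.74, 7.98 and 7.47 untreated in Rictor-/- cells, against 6.11, 5.89 and 6.80 with IFN and 6.80, 6.02 and 5.86 untreated in Rictor+/+ cells. The lines did not overlap, and Wnt10a was above background on 3 of the 6 Rictor+/+ arrays (1.96 ± 0.28, 3.89-fold, adjusted p = 0.000162). Without background correction the difference was 1.97-fold. Wnt10b had 9.14, 9.42 and 8.26 with IFN and 9.14, 9.16 and 8.43 untreated in Rictor-/- cells, against 7.86, 7.86 and 8.04 with IFN and 7.10, 6.98 and 7.77 untreated in Rictor+/+ cells. It was above background on all 12 arrays, again without overlap (1.33 ± 0.23, 2.51-fold, adjusted p = 0.000793).

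The ligand gene Wnt7b, expressed in many epithelia, showed a smaller difference. Its values were 7.15, 6.44 and 7.35 with IFN and 7.35, 7.55 and 6.45 untreated in Rictor-/- cells, against 5.11, 5.87 and 5.69 with IFN and 6.04, 7.33 and 5.93 untreated in Rictor+/+ cells. One untreated Rictor+/+ array lay within the Rictor-/- range. The difference was 1.05 ± 0.29 (2.08-fold, adjusted p = 0.017), or 1.33-fold without background correction and 1.29-fold in the authors' deposited values. It was not called when arrays were weighted by quality (0.71, adjusted p = 0.0514), nor within either set of arrays of like background (adjusted p = 0.124 and 0.197).

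Wnt6 and Wnt5b were lower in Rictor-/- cells, below background on all 6 Rictor-/- arrays. Wnt6 had 5.20, 5.28 and 5.58 with IFN and 5.56, 5.10 and 5.28 untreated in Rictor-/- cells, against 7.50, 6.67 and 7.79 with IFN and 9.39, 7.61 and 6.73 untreated in Rictor+/+ cells. The Rictor+/+ arrays spread widely, with array 1 the highest, and none reached down to the Rictor-/- values (−2.28 ± 0.36, adjusted p = 0.000471, at least 2.61-fold lower, or 1.99-fold in the authors' deposited values). A further Wnt6 probe gave −2.18 ± 0.45 in a fit of every kept probe (adjusted p = 0.00273).

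For Wnt5b, a ligand best known for signalling without beta-catenin, the values were 5.51, 4.87 and 5.14 with IFN and 5.53, 5.01 and 5.13 untreated in Rictor-/- cells, against 7.01, 6.86 and 5.91 with IFN and 7.10, 6.25 and 6.68 untreated in Rictor+/+ cells. The lines did not overlap, but the signal was weak in both, and the bound was at least 1.32-fold lower (−1.44 ± 0.23, adjusted p = 0.000412, 1.47-fold without background correction). Its paralog Wnt5a, the prototype of signalling without beta-catenin, was above background on all 12 arrays and not called. Wnt5a averaged 11.55 ± 0.40 in Rictor-/- and 11.13 ± 0.30 in Rictor+/+ cells (SD, n = 6 each), a difference of 0.42 with a 95% interval of −0.01 to 0.86 (adjusted p = 0.147). Leaving out array 12 gave 0.55 (adjusted p = 0.046).

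According to the RefSeq gene table, Wnt6 and Wnt10a are neighbours on chromosome 1 with 0 protein-coding genes between them. Wnt10a was higher and Wnt6 lower in Rictor-/- cells, so these adjacent genes differed in opposite directions.

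Rspo3, an R-spondin that amplifies Wnt signals through Lgr receptors, was lower in Rictor-/- cells. Its log2 intensities were 6.03, 6.10 and 4.72 with IFN and 5.14, 5.66 and 5.72 untreated in Rictor-/- cells, against 10.94, 10.87 and 10.98 with IFN and 11.05, 11.10 and 11.32 untreated in Rictor+/+ cells. Rictor+/+ arrays lay within a narrow high band, and only 1 of 6 Rictor-/- arrays was above background. The difference was −5.48 ± 0.23 (adjusted p = 1.96e-09), and in untreated cells Rspo3 was at least 33.4-fold lower on background-corrected values. Without the correction it was 12.7-fold lower in untreated cells, and 12.6-fold in the authors' deposited values. A dimmer Rspo3 probe had 5.30, 5.33 and 5.52 with IFN and 5.18, 5.45 and 5.38 untreated in Rictor-/- cells, against 7.46, 7.79 and 8.44 with IFN and 9.33, 8.34 and 8.24 untreated in Rictor+/+ cells. It went the same way by a smaller amount, −2.91 ± 0.22 (adjusted p = 4.8e-07, at least 4.10-fold lower).

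**Figure D2:**
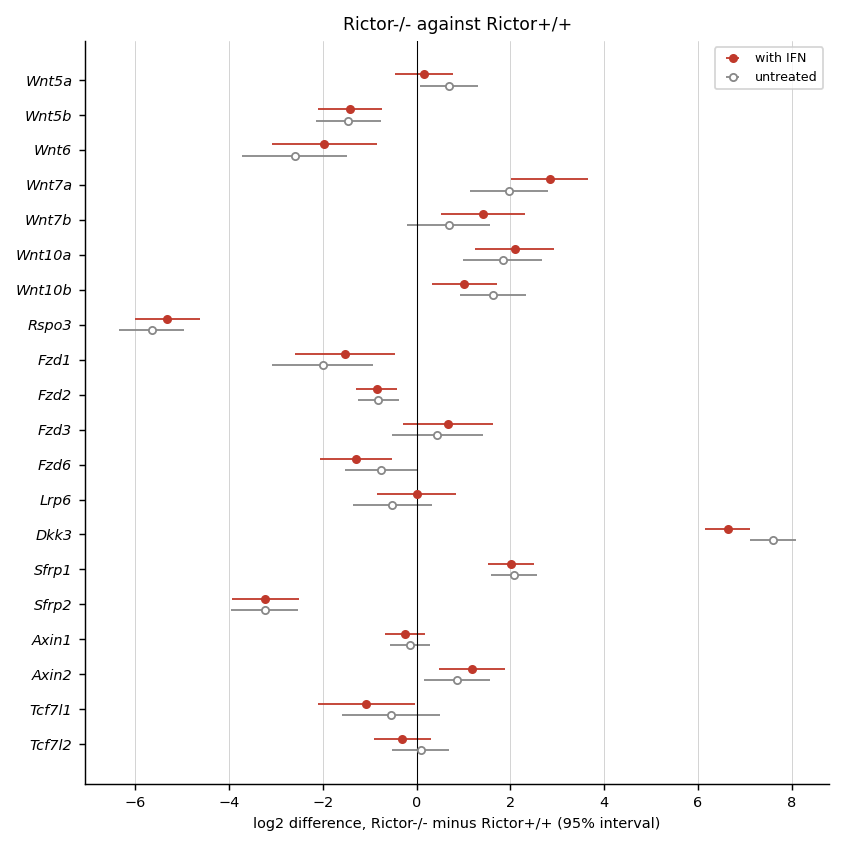
Log2 difference in intensity, Rictor-/- minus Rictor+/+, of the 20 tested Wnt pathway genes with IFN (red, filled) and untreated (grey, open), with 95% intervals from limma (3 arrays a group). Dkk3 lies far to the right at 6.63 with IFN and 7.60 untreated, Rspo3 far to the left at −5.31 and −5.65, and each gene named as higher or lower has both points on the same side of 0.

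Among the receptors, Fzd1 and Fzd2, Frizzleds that bind Wnt ligands at the cell surface, were lower in Rictor-/- cells. Fzd1 had 8.24, 8.41 and 9.69 with IFN and 8.95, 8.12 and 7.74 untreated in Rictor-/- cells, against 9.90, 9.89 and 11.14 with IFN and 10.64, 9.45 and 10.72 untreated in Rictor+/+ cells. The lines overlapped only through array 12, the Rictor-/- array at 9.69 (−1.77 ± 0.35, 3.40-fold lower, adjusted p = 0.00216). For Fzd2 the values were 9.80, 9.93 and 10.09 with IFN and 10.09, 10.09 and 10.09 untreated in Rictor-/- cells, against 10.95, 10.61 and 10.81 with IFN and 10.88, 10.62 and 11.21 untreated in Rictor+/+ cells. The shift was small but without overlap (−0.83 ± 0.14, 1.78-fold lower, adjusted p = 0.000733).

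Fzd6, a Frizzled that acts in planar cell polarity, was called on 1 of its 2 probes. The brighter had 9.16, 9.78 and 8.30 with IFN and 9.58, 9.59 and 9.28 untreated in Rictor-/- cells, against 10.41, 10.54 and 10.16 with IFN and 9.73, 10.17 and 10.84 untreated in Rictor+/+ cells. The highest Rictor-/- array just overlapped the lowest Rictor+/+ array (−1.02 ± 0.25, 2.03-fold lower, adjusted p = 0.00868). The other probe differed by −0.44 ± 0.23 (adjusted p = 0.175) and was not called, so the probes disagree on the call.

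Fzd3, another Frizzled of planar polarity, averaged 6.89 ± 0.72 in Rictor-/- and 6.33 ± 0.57 in Rictor+/+ cells and was not called (0.56 ± 0.31, adjusted p = 0.228). With the background set as a block it was 0.88 (adjusted p = 0.00727). The co-receptor Lrp6 averaged 6.41 ± 0.61 and 6.66 ± 0.40 and was not called either (−0.26, 95% interval −0.85 to 0.34, adjusted p = 0.546).

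Next to Fzd1 on chromosome 5, with 0 protein-coding genes between, lies Cdk14, a kinase that phosphorylates Lrp6. Cdk14 was lower in Rictor-/- cells too, with a mean of 10.29 ± 0.35 against 11.22 ± 0.32 in Rictor+/+ cells (SD, n = 6 each; −0.93 ± 0.17, adjusted p = 0.00112).

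All 3 tested secreted inhibitors were called, beside 26.7% of all features and 41.7% of named genes. Of these inhibitors, Dkk3 and Sfrp2 were above background in 1 line only and so had to differ. Dkk3, a divergent Dickkopf that, unlike its relatives, is not known as a blocker of the Lrp co-receptors, had 12.36, 12.71 and 12.48 with IFN and 12.98, 12.56 and 12.36 untreated in Rictor-/- cells, against 5.90, 5.98 and 5.78 with IFN and 5.30, 5.07 and 4.73 untreated in Rictor+/+ cells. The probe was detected on every Rictor-/- array and on 0 Rictor+/+ arrays. The difference was 7.11 ± 0.16 (adjusted p = 1.68e-11), at least 85.7-fold higher on background-corrected values. Without the correction Dkk3 was 33.7-fold higher, and 34.3-fold in the authors' deposited values. A second probe gave 7.02 ± 0.18 (at least 77.8-fold, adjusted p = 4.88e-11).

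Sfrp1 and Sfrp2, relatives that bind Wnt ligands outside the cell, went in opposite directions. Sfrp1 had 8.76, 8.49 and 8.84 with IFN and 8.69, 8.47 and 7.98 untreated in Rictor-/- cells, against 6.67, 6.59 and 6.80 with IFN and 6.08, 6.26 and 6.57 untreated in Rictor+/+ cells. It was higher on all Rictor-/- arrays (2.04 ± 0.16, 4.12-fold, adjusted p = 7.67e-07). A second Sfrp1 probe gave a larger difference, 3.92 ± 0.29 (adjusted p = 4.48e-07), and was above background on 1 of 6 Rictor+/+ arrays.

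Sfrp2 had 5.92, 5.51 and 5.04 with IFN and 6.17, 5.21 and 5.66 untreated in Rictor-/- cells, against 8.08, 8.88 and 9.19 with IFN and 9.12, 8.80 and 8.83 untreated in Rictor+/+ cells. It was below background on all Rictor-/- arrays and above on all Rictor+/+ arrays (−3.23 ± 0.23, adjusted p = 3.6e-07, at least 6.01-fold lower on background-corrected values). Without the correction Sfrp2 was 3.12-fold lower, and 3.16-fold in the authors' deposited values. The low Rictor-/- values of Sfrp2 and the high ones of Sfrp1 were seen in treated and untreated cells alike.

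Among the intracellular effectors, Axin2, a scaffold of the destruction complex and itself a widely used target gene of beta-catenin, was higher in Rictor-/- cells. Its values were 7.97, 7.71 and 6.79 with IFN and 8.20, 7.94 and 7.36 untreated in Rictor-/- cells, against 6.63, 6.37 and 5.91 with IFN and 6.79, 6.90 and 7.23 untreated in Rictor+/+ cells. The ranges overlapped through array 12 at 6.79 (1.02 ± 0.23, 2.03-fold, adjusted p = 0.00522). With arrays scaled by their median in place of quantile normalization the difference was 0.85 and not called (adjusted p = 0.0659).

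The other effectors were above background on all 12 arrays and not called. The scaffold gene Axin1 averaged 11.72 ± 0.18 in Rictor-/- and 11.91 ± 0.20 in Rictor+/+ cells, a difference of −0.19 with a 95% interval of −0.49 to 0.11 (adjusted p = 0.358). Tcf7l2, a Tcf factor that partners beta-catenin, averaged 10.38 ± 0.29 and 10.49 ± 0.42, a difference of −0.11 (−0.54 to 0.33, adjusted p = 0.74). Tcf7l1, a Tcf factor that mainly represses, averaged 11.40 ± 0.72 and 12.21 ± 0.74, a difference of −0.81 (−1.54 to −0.07, adjusted p = 0.101). It passed the test without array 1 (−1.01, adjusted p = 0.042) or array 10 (−1.06, adjusted p = 0.0249), both Rictor+/+ arrays.

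When each background set was read on its own, all 14 called genes kept the sign of the pooled difference. Dkk3 differed by 7.11 within the high set and 7.27 within the low set, Rspo3 by −5.40 and −5.60, Sfrp2 by −2.68 and −3.65 and Sfrp1 by 2.32 and 1.76. The differences of Wnt7a were 2.07 and 2.68, of Wnt10a 2.26 and 1.75, of Wnt6 −2.41 and −1.95 and of Fzd1 −1.38 and −2.44. Wnt10b had 1.70 and 0.91, Axin2 1.41 and 0.88, Wnt7b 1.17 and 1.13, Wnt5b −1.29 and −1.26, Fzd6 −0.84 and −1.26 and Fzd2 −0.82 and −0.96. Wnt7b, Fzd2 and Fzd6 were not called within either set (adjusted p = 0.0622 to 0.197), and Axin2 and Wnt10b not within the low set (adjusted p = 0.225 and 0.271). Both sets entered the pooled call, so these values are a description.

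**Figure D3:**
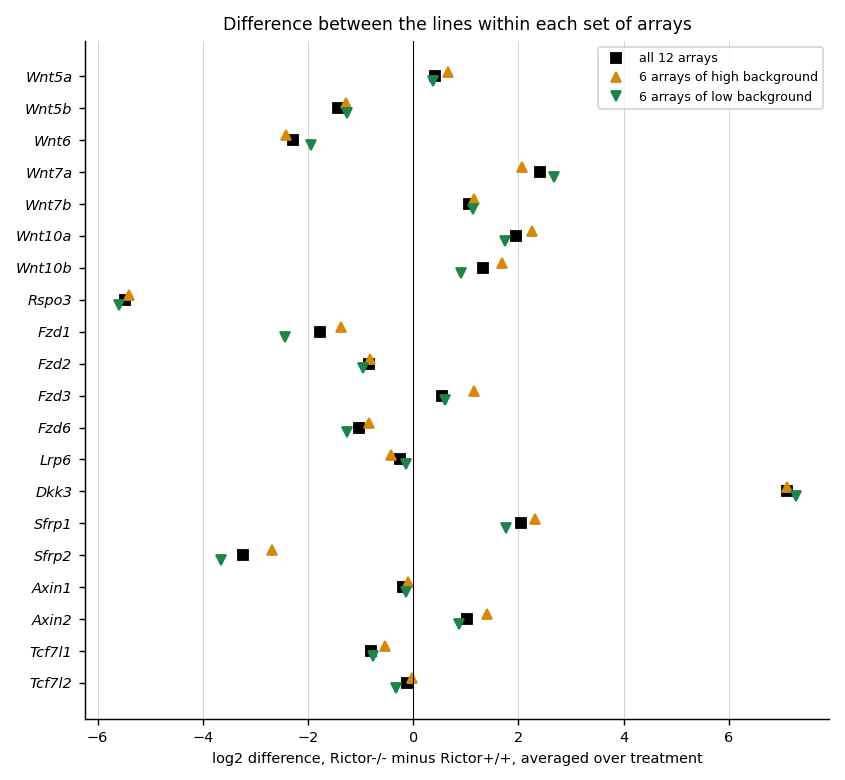
Log2 difference, Rictor-/- minus Rictor+/+, averaged over treatment, on all 12 arrays (black squares), on the 6 arrays of high background (orange) and on the 6 of low background (green), for the 20 tested Wnt pathway genes. Symbols of Rspo3 stay between −5.40 and −5.60 and those of Dkk3 between 7.11 and 7.27, while Fzd1 spans −1.38 to −2.44.

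With each treatment on its own (3 arrays a group), the called genes were fewer. In untreated cells 5 of 20 were higher in Rictor-/- cells (Dkk3, Sfrp1, Wnt7a, Wnt10a and Wnt10b) and 6 lower (Rspo3, Sfrp2, Wnt6, Wnt5b, Fzd1 and Fzd2), where 13.3% of all features (6.49% higher, 6.85% lower) and 22.2% of named genes were called. Without an array in turn, Fzd1 was not called without array 1, 7, 9 or 11 (−1.82, −1.93, −1.78 and −1.74, adjusted p = 0.0582 to 0.0731) and Fzd2 not without array 7, 9 or 11 (−0.81, −0.66 and −0.81, adjusted p = 0.0543 to 0.0618). Wnt5a, with 0.69 ± 0.28, and Axin2, with 0.86 ± 0.33, were not called there (adjusted p = 0.139 and 0.107), and without array 12 Axin2 was (adjusted p = 0.0442).

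With IFN, 7 of 20 were higher, the same 5 with Axin2 and Wnt7b, and 6 lower, Rspo3, Sfrp2, Wnt6, Wnt5b, Fzd2 and Fzd6, where 16.3% of features (7.33% higher, 8.95% lower) and 26.6% of named genes were called. Median scaling gave 4 higher and 7 lower. Fzd1 missed the threshold at −1.53 ± 0.49 (adjusted p = 0.0521). It was called under 10 of 13 other ways of processing, among them the background set as a block (−1.67, adjusted p = 0.0431), and without array 3, 5 or 12 (adjusted p = 0.0144 to 0.047). The background set as a block also called Fzd3 (0.99, adjusted p = 0.0303) and not Wnt10b (adjusted p = 0.0743). Calls near the threshold depended on single arrays. Wnt10b, at 1.02 ± 0.32 (adjusted p = 0.0478), lost the call without any of arrays 1 to 8 or array 10 (0.78 to 1.08, adjusted p = 0.0527 to 0.167). Wnt6 lost it without array 2, 4, 8 or 10 (−1.73 to −1.93, adjusted p = 0.056 to 0.071), Wnt7b without array 2, 4, 10 or 12 (1.20 to 1.49, 0.0597 to 0.13) and Axin2 without array 4, 6, 8 or 10 (0.95 to 1.22, 0.0603 to 0.0987). Fzd6 lost it without array 2, 4, 6 or 12 (−0.89 to −1.33, 0.0542 to 0.0842), Fzd2 without array 2 (−0.77, 0.0508), and Tcf7l1 was called without array 10 (−1.57, 0.0389).

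The next comparison asks whether IFN-alpha changed Wnt pathway genes. None of the 20 was called in either line by limma. At an unadjusted p under 0.05 there was 1 gene in Rictor-/- cells, Wnt7a, and 1 in Rictor+/+ cells, Dkk3, and over all features 0.834% were called in Rictor-/- and 2.45% in Rictor+/+ cells. The log2 changes with IFN lay between −0.91 and 0.97 in Rictor-/- cells and between −0.88 and 0.85 in Rictor+/+ cells. The 95% intervals, which are not adjusted for the number of features, reached 0.71 to either side at the median. A call after adjustment needed more than that with 3 arrays a group. In Rictor-/- cells changes of 0.97 (Wnt7a) and −0.91 (Tcf7l1) were not called, so changes of this size are not excluded.

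Wnt7a was higher by 0.97 ± 0.38 with IFN in Rictor-/- cells, with an unadjusted p of 0.0244 and an adjusted p of 0.675 from limma. Its 3 treated arrays, at 7.77 to 8.43, spread less than the 3 untreated ones, at 6.17 to 7.98, and the groups overlapped. Dkk3 in Rictor+/+ cells changed by 0.85 ± 0.22 (unadjusted p = 0.00221, limma adjusted p = 0.0788), while all 6 arrays were below background on this probe. Its second probe gave 0.47 ± 0.25 (unadjusted p = 0.0791). Array weights gave 0.90 (adjusted p = 0.00469), and no other alternative called it.

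The difference of the IFN responses, Rictor-/- minus Rictor+/+, was called for 0 of the 20 genes, against 0.382% of all features. It was −0.97 ± 0.31 for Dkk3 (unadjusted p = 0.00908, limma adjusted p = 0.583), the 1 gene with an unadjusted p under 0.05. Over the 20 genes it ran from −0.97 to 0.87 with adjusted p-values of 0.583 to 0.999. The comparison of the lines and the IFN comparisons share arrays.

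**Figure D4:**
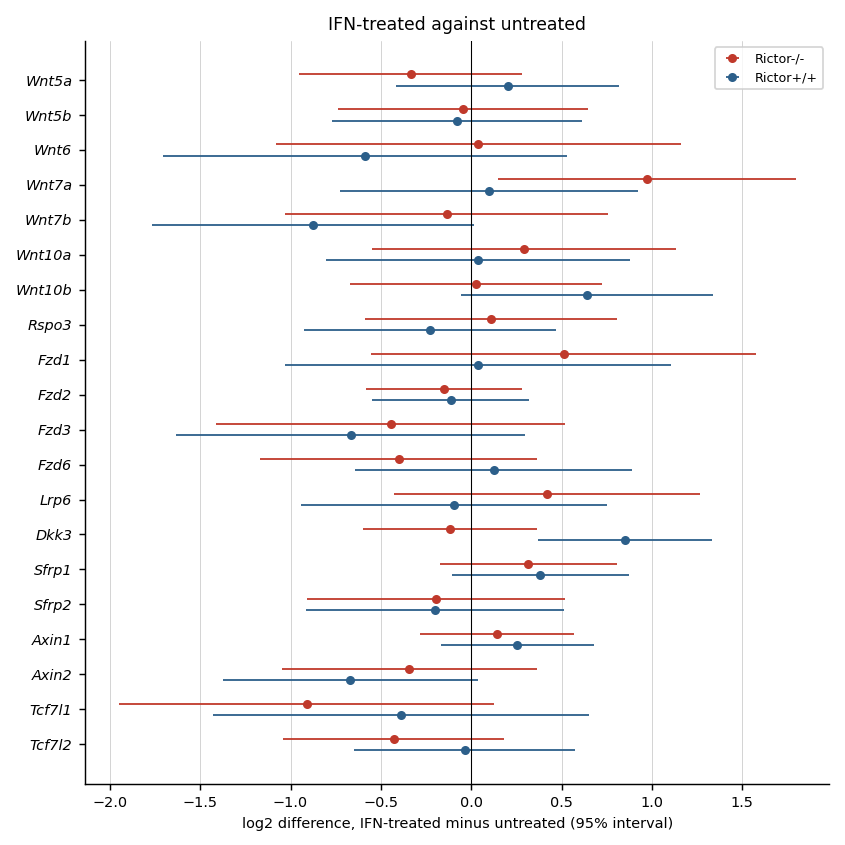
Log2 change with IFN (treated minus untreated) of the 20 tested Wnt pathway genes in Rictor-/- (red) and Rictor+/+ (blue) cells with 95% intervals from limma, 3 arrays a group. Points lie between −0.91 and 0.97, and most intervals cross 0, those of Wnt7a in Rictor-/- and Dkk3 in Rictor+/+ cells being the exceptions.

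Other genes of the pathway were counted in 5 lists by function, which share Nkd1, Lgr5 and Apcdd1. Among 9 tested genes of Wnt secretion and the cell surface, 2 were higher in Rictor-/- cells averaged over treatment (Kremen1 and Apcdd1), 4 lower and 3 not called, with a median of −0.61, against 0.05 over all features. For this and the following lists the shares called over all features, 26.7%, and over named genes, 41.7%, are the background. A listed gene above background in 1 line only, such as Lgr5 here, had to differ. Igfbp4, a growth factor binding protein that also inhibits Wnt signalling, was lower, with a difference of −1.95 ± 0.20 (11.72 ± 0.45 against 13.67 ± 0.27 in Rictor+/+ cells, adjusted p = 9.04e-06). Lgr5, a receptor of R-spondins, was below background on all 6 Rictor-/- arrays and above on 4 of 6 Rictor+/+ arrays (at least 1.12-fold lower, adjusted p = 2.13e-05). Gpc4, a glypican, was lower, with a difference of −0.88 ± 0.13, and Kremen1, a Dickkopf receptor, higher by 0.86 ± 0.17. Wls, the carrier that brings Wnt proteins to the cell surface, was lower, with a difference of −0.61 ± 0.15 (adjusted p = 0.0106).

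Of 8 genes for alternative receptors and planar polarity, 3 were higher, 2 lower and 3 not called (median 0.22), beside the 41.7% of named genes called. Nfatc1, a transcription factor of the calcium branch, was higher by 1.89 ± 0.25 (adjusted p = 0.000114), and the receptor genes Ror2 and Ryk, which bind Wnt5a-type ligands, by 0.68 ± 0.18 and 0.46 ± 0.12. The polarity genes Ptk7 and Vangl2 were lower, with differences of −1.08 ± 0.23 and −1.08 ± 0.27 (adjusted p = 0.00411 and 0.00966).

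The destruction complex and Dishevelled list had 23 tested genes, of which 5 were higher, 6 lower and 12 not called (median −0.11), a share near the 41.7% of named genes. Among the called genes, Nkd1, Nkd2 and Dact1 were above background in 1 line only and so had to differ. Frat2, a Gsk3-binding protein that favours signalling, was higher by 2.96 ± 0.21 (8.63 ± 0.38 against 5.68 ± 0.30 in Rictor+/+ cells, where 1 of 6 arrays was above background, adjusted p = 2.72e-07). The Frat2 difference was 1.47 without background correction. The related Dishevelled antagonists Nkd1 and Nkd2 differed in opposite directions. Nkd1 was at least 2.06-fold lower (adjusted p = 2.24e-06) and Nkd2 at least 1.91-fold higher (adjusted p = 0.000276). Dvl2, a Dishevelled, was lower, with a difference of −1.11 ± 0.18 (adjusted p = 0.000559) and 1 of 6 Rictor-/- arrays above background. Its difference was −0.42 without background correction. The beta-catenin gene Ctnnb1 itself averaged 13.83 ± 0.33 in Rictor-/- and 13.92 ± 0.35 in Rictor+/+ cells and was not called (adjusted p = 0.777).

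Of 14 nuclear cofactors, 1 was higher, 2 lower and 11 not called (median 0.01), under the 26.7% of all features and the 41.7% of named genes. Leaving out array 12 gave 4 higher and 3 lower. Tle2 and Tle6, of the Groucho family of corepressors, were lower, with differences of −1.27 ± 0.28 and −1.24 ± 0.20, and Aes (also named Tle5), a short member of that family, was higher by 1.60 ± 0.37 (adjusted p = 0.0049, 0.000594 and 0.00624). These 3 genes lie side by side on chromosome 10 according to the RefSeq gene table.

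Of 23 tested genes listed as targets of beta-catenin, 11 were higher, 6 lower and 6 not called in Rictor-/- cells (median 0.58), beside 41.7% of named genes called in either direction. Tbx3, Nkd1, Lgr5 and Tnfrsf19 were above background in 1 line only on the tested probe. Genes that passed the filter in this way had to differ, so the count does not measure an excess. Tbx3, a T-box factor, averaged 10.33 ± 0.23 in Rictor-/- and 4.84 ± 0.16 in Rictor+/+ cells (at least 18.0-fold higher, or 9.77-fold without background correction, adjusted p = 6.14e-11). Msx1, a homeobox factor, was above background on 1 of 6 Rictor+/+ arrays, and its fitted difference of 3.50 ± 0.21 (adjusted p = 7.43e-08) was 1.92 without background correction. Jun, a subunit of AP-1, was higher by 3.70 ± 0.24 and the adhesion receptor gene Cd44 by 2.31 ± 0.18 (adjusted p = 1.48e-07 and 6.53e-07). Nkd1, Lgr5, Vegfa, Tnfrsf19, Wisp1 and Bmp4 were lower. Feedback targets of the pathway went both ways, with Axin2 and Apcdd1 higher and Nkd1 and Lgr5 lower, and many of these targets are also controlled by other pathways.

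**Figure D5:**
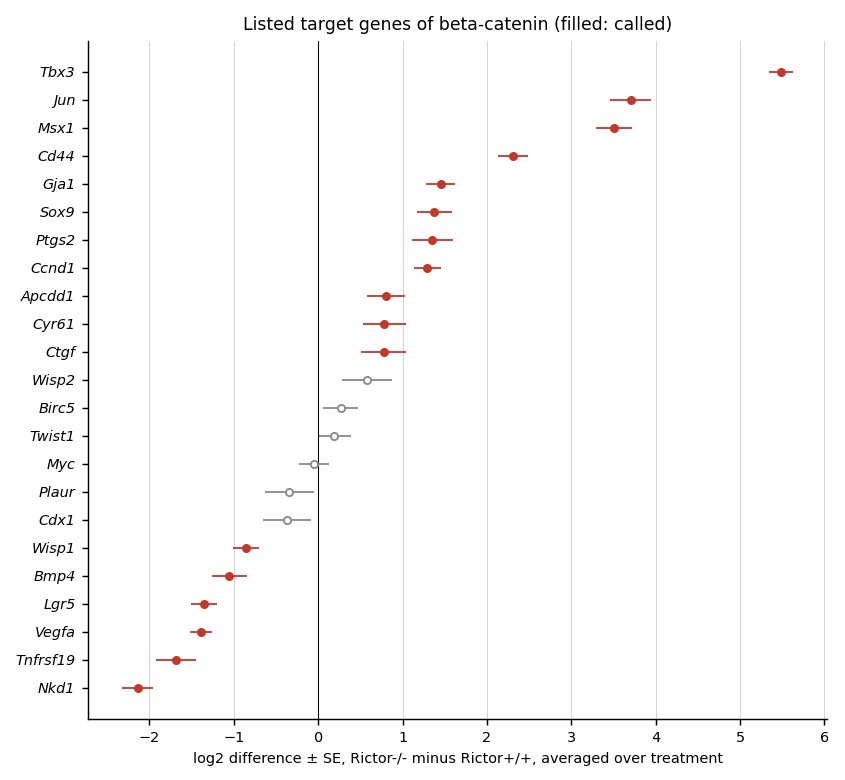
Log2 difference ± SE, Rictor-/- minus Rictor+/+, averaged over treatment, of 23 listed target genes of beta-catenin (filled where called, open where not). Tbx3 stands at 5.49 and Nkd1 at −2.14, and called genes lie on both sides of 0.

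With IFN in Rictor+/+ cells, 1 of the 23 target genes was higher and 1 lower, and 0 genes of the other 4 lists were called. Over all features 2.45% were called in that comparison, so few calls say little about lists of this size. Wisp2 (Ccn5), a matricellular protein, was higher by 1.85 (adjusted p = 0.0335) and Gja1, a gap junction protein, lower (−1.14, adjusted p = 0.0205). Between the lines, Wisp2 was higher in untreated Rictor-/- cells (1.85 ± 0.42, limma adjusted p = 0.0102). With IFN its difference was −0.69 and not called (adjusted p = 0.314), nor was the average over treatment called (0.58, adjusted p = 0.178). Gja1 lost the call without array 1, 2, 5, 6 or 9 (−0.93 to −1.19, adjusted p = 0.0645 to 0.117) and Wisp2 (Ccn5) without array 1, 2, 5, 6, 7, 9 or 10 (1.58 to 2.06, adjusted p = 0.052 to 0.179). In Rictor-/- cells 0 genes of the 5 lists were called with IFN, against 0.834% of all features.

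Markers of other cell types were read beside these results. Pparg, which drives fat cell formation, was below background on 6 of 6 Rictor-/- arrays and above on 6 of 6 Rictor+/+ arrays (at least 11.3-fold lower, or 5.42-fold without background correction), while the fat cell gene Adipoq was above background on 0 arrays. The cartilage genes Col2a1 and Sox9 were higher by 2.33 ± 0.25 and 1.38 ± 0.20, with Col2a1 above background on 3 of 6 Rictor+/+ arrays. Col2a1 differed by 1.13 without background correction. Of the 12 fibroblast markers, Dcn, Fap, Col1a1, Col1a2, Col3a1, Pdgfra, Fn1 and Lum were lower, S100a4 and Vim were higher by 2.33 ± 0.21 and 0.63 ± 0.16, and Thy1 and Pdgfrb were not called. Fap and Lum were above background in Rictor+/+ cells only. The smooth muscle gene Tagln was higher by 1.13 ± 0.16, while Acta2 was not called. Tagln differed by 0.72 in untreated cells (limma adjusted p = 0.0582, not called) and by 1.54 with IFN (adjusted p = 0.000472). In Rictor+/+ cells Tagln and S100a4 were lower with IFN (−1.54 and −1.28, limma adjusted p = 0.00154 and 0.0456). The neural genes Nes and Map2 were lower, with differences of −1.23 ± 0.25 and −1.24 ± 0.14, and Tubb3 was not called. Nanog of pluripotent cells was lower, with a difference of −2.32 ± 0.18 (−0.99 without background correction) and 1 of 6 Rictor-/- arrays above background. Epcam of epithelium and Lyz2 of macrophages were above background on 0 arrays. Another macrophage gene, Csf1r, passed background in both lines, with 4 such arrays in Rictor+/+ cells and 1 in Rictor-/- cells. Csf1r was not called (−0.48 ± 0.21, adjusted p = 0.118). Kdr of endothelium passed on 2 arrays in Rictor-/- cells and 1 in Rictor+/+ cells and was not called (adjusted p = 0.544). Acan of cartilage, with 1 such array in each line, did not pass the filter. Whether these differences go with those of the Wnt pathway genes was not tested.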

How the data were processed

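Expression was measured on 12 Illumina mouse BeadChip arrays. The non-normalized table holds intensity, the average bead signal per probe on a linear scale as the authors deposited it, made with BeadStudio per the submitters' processing notes (settings not given in the sources used here). A second deposited table holds the authors' log2 values of 17003 probes, normalized by a method not given in the sources used here. Gene names came from GEO's platform annotation, which covers only those probes and names 1 gene for 14461 of them.

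As the table has no detection p-values or control probes, a background was set per array at the peak of its log2 signal density, with an SD from the values under that peak. Intensities were corrected with normexp (offset 16), quantile normalized and put on the log2 scale in R 4.3.3 with limma 3.58.1. Quantile normalization hides any general shift. A probe was above background at an upper-tail p under 0.01, and was kept if so on at least 3 of 12 arrays. The brightest kept probe stood for a gene. Group means were fitted with lmFit and eBayes to all 12 arrays (8 residual and 4.51 prior degrees of freedom), tests were two-sided, with Benjamini-Hochberg adjustment across 17268 features. Their median SE was 0.20 averaged over treatment and 0.29 within 1 treatment, and the number of arrays limits this precision. A fold against a group below background on all its arrays is a bound. The fit was tested on simulated data.

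Every tested gene of the rule was named, those called with each array's value, and up to 4 called genes of each list by smallest adjusted p. Genes beyond these, such as Ctnnb1, Cdk14, Wls, Apcdd1, Ror2, Gja1, Wisp2 and the markers, were named after their values were seen. The members and lists were chosen with earlier results of these data known. RefSeq gene neighbours were read without coordinates, from a table whose build may differ from that of the array design. The alternatives tried were other background corrections, normalizations, filters and probes, the deposited values, array weights, the background sets, rounds of title numbers as a block and each array left out.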

Additional observations from a re-analysis of the deposited data

How the results depend on the processing

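Of the 38 called results of single Wnt pathway genes, 0 changed direction under any of the alternatives run. Over 950 alternative values, 863 were also called and 87 were not. Many of these values repeat the main difference and could not change direction. Other filters, the fit of every kept probe and rounds of title numbers as a block left the difference itself unchanged. Within 1 treatment, so did leaving out an array of the other treatment. The 950 values are therefore not separate checks. Averaged over treatment, the 14 calls held when any 1 array was left out, with 7 to 8 genes higher and 7 to 8 lower. In untreated cells, leaving out arrays gave 5 to 6 higher and 4 to 6 lower, and with IFN 4 to 7 higher and 3 to 7 lower. With IFN, 4 were higher without array 4 or array 10, and 3 lower without array 2. Both IFN comparisons and the difference of responses stayed at 0. Within the high set of arrays, 2 genes were lower in untreated cells, and 4 higher and 2 lower with IFN. Within the low set, 1 was higher and 2 lower untreated, 2 higher and 3 lower with IFN, and 4 higher averaged over treatment, where Fzd2 and Fzd6 lost the call in either set. These fits rest on 6 arrays, so that groups with 1 array are assumed to vary like the others. Median scaling gave 4 higher with IFN. It moved the median of all features to −0.26 in that comparison, against 0.04 with quantile normalization, and to −0.26 for IFN in Rictor-/- cells and −0.27 for the difference of responses. Array weights called 1 gene, Dkk3, higher with IFN in Rictor+/+ cells. The cause of these shifts was not tested.

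Genes that passed the test under an alternative alone were Wnt4 (lower with the deposited values or no filter), Tcf7l1, Fzd3, Wnt5a, Axin2, Fzd6 and Fzd1. Of the pathway lists, whose alternatives were added after seeing the data, 41 called results of single genes gave 912 called, 111 uncalled and 0 reversed values. Some of these values, too, repeat the main difference. Target genes were 6 to 12 higher and 3 to 6 lower averaged over treatment, destruction complex genes 2 to 6 and 1 to 8, secretion and surface genes 0 to 3 and 2 to 5, alternative receptor genes 1 to 4 and 0 to 2 and nuclear cofactors 0 to 4 and 0 to 3, the lowest within a background set or with median scaling. The sample titles number the arrays in 3 rounds that hold each group once, though no label says that a round was processed together, and a replicate block of these rounds was added after seeing the data. Deviations from the group means correlated above 0.1 in 9 of 18 same-round pairs (−0.32 to 0.54) and in 11 of 36 others, a smaller share. Of the 12 arrays, 8 correlated best with their own round, so that arrays of a round may share some variation, which was not tested. Arrays 1 to 4 were all of the high background set and arrays 9 to 12 all of the low set. Round and background set therefore coincide in part. The main fit left the block of rounds out because no label gives pairs. With this block, 8 genes, with Fzd3 added, were higher and 7 lower averaged over treatment, 5 and 6 untreated, and 6 and 7 with IFN, without Wnt10b and with Fzd1. Genes near background, such as Wnt5b, Fzd3 and Lrp6, have compressed differences.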
